A study of Mus musculus with 2 samples.

Results

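The microRNAs described here are the 2 arms of miR-126a and the 2 arms each of miR-221 and miR-222, which are known from blood vessels. They were chosen by name among the 1892 mouse microRNA probes of the array, as the 6 named mmu-miR-126a-3p, mmu-miR-126a-5p, mmu-miR-221-3p, mmu-miR-221-5p, mmu-miR-222-3p and mmu-miR-222-5p, and each probe was printed on 2 repeat spots. Baseline mouse tissue without injury or treatment, either skin or oral mucosa, was profiled on 1 single-colour (Cy5) array for each, with 2 µg of total RNA from a pool of 3 animals and matched between the tissues. The methods call these skin and oral mucosal samples and the results call them epithelium, so how much tissue under the epithelium they held is not known. Mice in the wound models were female Balb/c animals aged 8 to 10 weeks, and no other strain or age is given for the arrays. Each pool was read once, so the spread between animals was not measured and the tissues could not be tested against each other. Precision is limited by there being 1 array per tissue. In whole tissue, fewer cells of a type and less RNA per cell cannot be told apart.

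MicroRNAs are cut from a hairpin precursor, of which either arm (-5p or -3p) can be loaded into Argonaute, and bases 2 to 8 of the loaded strand, the seed, pair with target mRNAs. MiR-126 lies within Egfl7, a gene of endothelial cells, and is known as the most characteristic endothelial microRNA. It sustains VEGF signalling and vessel integrity by lowering Spred1 and Pik3r2, and its -5p arm acts in endothelial proliferation through Dlk1. MiR-221 and miR-222 share a seed and a primary transcript. They lower the stem cell factor receptor Kit and the cell cycle inhibitor Cdkn1b, restrain endothelial migration and promote growth of vascular smooth muscle cells, and they are also made in blood cells, fibroblasts, melanocytes and proliferating epithelium.

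The deposited target sequences of the 6 probes are shown first, because the arms that gave signal and those that did not come from the same hairpins. Capitals mark the seed.
miR-126a-3p: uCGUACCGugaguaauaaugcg
miR-126a-5p: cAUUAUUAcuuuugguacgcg
miR-221-3p: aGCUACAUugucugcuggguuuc
miR-222-3p: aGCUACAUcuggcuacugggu
miR-221-5p: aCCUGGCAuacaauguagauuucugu
miR-222-5p: uCAGUAGCcaguguagauccu
MiR-221-3p and miR-222-3p are identical over their first 8 bases and at 11 of the 21 positions compared from the 5′ end, and their longest shared run is 8 bases. The -5p arms of the same hairpins do not share a seed with each other. One further probe of the array, miR-1928, carries the seed of miR-221-3p and miR-222-3p, and none carries a seed of either miR-126a arm. The RefSeq mature miR-222-3p is 23 bases long, against 21 for the target on the array.

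The hairpins from RefSeq (GRCm38.p6) are shown with the target sequences of both arms in capitals, to place each arm.
Mir126a: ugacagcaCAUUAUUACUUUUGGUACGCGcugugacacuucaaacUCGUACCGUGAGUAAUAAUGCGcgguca
Mir221: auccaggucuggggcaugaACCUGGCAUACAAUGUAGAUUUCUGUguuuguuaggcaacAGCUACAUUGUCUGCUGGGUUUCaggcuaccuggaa
Mir222: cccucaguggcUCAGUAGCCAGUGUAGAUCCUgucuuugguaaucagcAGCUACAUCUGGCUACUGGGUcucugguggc
Mir126a lies on the plus strand at chr2:26591357-26591429, inside Egfl7 (chr2:26581083-26592682), with the -5p target at chr2:26591365-26591385 and the -3p target at chr2:26591402-26591423. Mir221 (chrX:19146294-19146388) and Mir222 (chrX:19146893-19146971) lie on the minus strand, 504 bases apart, with no other annotated gene between them. The annotation used gives gene spans and not exons, so whether a hairpin is intronic was not read from it.

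Signals are the median brightness of a spot in scanner units, without background subtraction. A probe was called detected where the mean of its spots lay above the mean plus 3 SD of the 16 empty spots, a limit of 59.9 for skin and 71.8 for the oral mucosa array. By this rule 446 and 510 probes were detected, respectively, and 562 on at least 1 array. Empty spots differed by place, so the limits also hold that spread. The 4 in the top row averaged 47.8 in skin and 43.3 in oral mucosa, and the other 12 averaged 32.5 and 54.7. The median over all probes, itself under both limits, was 42.2 in skin and 52.2 in oral mucosa, a ratio of 1.24. Differences are oral mucosa minus skin after Variance Stabilizing Normalization (VSN), on a scale that runs parallel to log2 at high signal. A difference of at least 1 (2-fold) was taken as past the size rule.

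Of the 6 microRNAs, miR-221-3p and miR-222-3p were detected on both arrays, miR-126a-3p was detected on the oral mucosa array only, and the 3 -5p arms were detected on neither array. The 3 detected -3p arms had the higher signal on the oral mucosa array, by 2.40-fold for miR-221-3p and 2.53-fold for miR-222-3p with VSN. For miR-126a-3p it was 3.58-fold with VSN, taken from the lowest detected skin signal. The last value is a bound on the skin side only and under this scaling only. In log2 it is 1.84 with an SD of 0.70 from the 2 oral mucosa spots. MiR-126a-3p was below 2-fold in 6 of 16 ways of processing. Neither miR-221-3p nor miR-222-3p was higher on the skin array. MiR-126a-3p was detected on the oral mucosa array only, and such a probe cannot be called toward skin by this rule. Over all 562 detected microRNAs, 13.7% were past the size rule with the higher signal in oral mucosa and 14.8% with the higher signal in skin, 28.5% in either direction. Only 3 members could be called at all, so the share of members carries little weight. The number past the rule was 3 in 12 of 20 ways of processing and 2 in 7, and it was 0 at a 4-fold threshold.

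**Figure D1:**
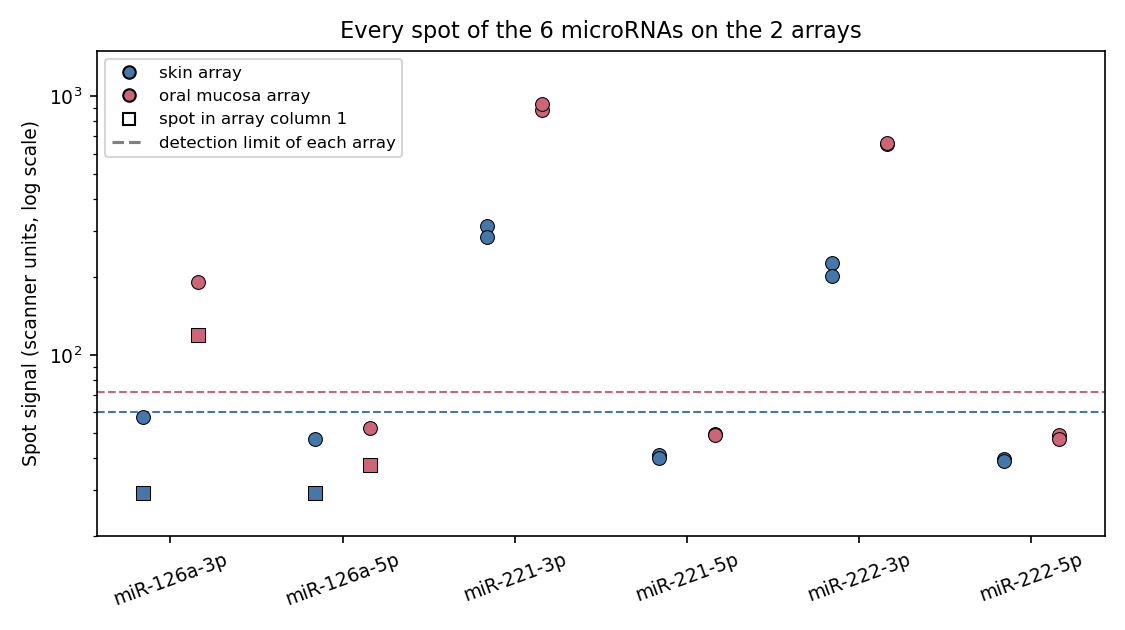
Signal of each of the 12 spots of the 6 microRNAs on the skin array (blue) and the oral mucosa array (red), in scanner units on a log axis. Squares are spots in array column 1 and dashed lines are the detection limits of 59.9 and 71.8. The -3p arms of miR-221 and miR-222 lie above the limit on both arrays, miR-126a-3p lies above it on the oral mucosa array only, and the -5p arms lie below it throughout.

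MiR-221-3p, an inhibitor of Kit and Cdkn1b, had signals of 316 and 285 on its skin spots and of 887 and 936 on its oral mucosa spots. The oral mucosa spots were both above the skin spots, and the spread of repeat spots was small beside the distance. The means were 301 ± 21.3 (SD of the 2 repeat spots) and 912 ± 34.9. The VSN difference was 1.26, with an SD of 0.13 that combines the repeat spots of both arrays and covers technical error within the arrays only.

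MiR-222-3p, which carries the same seed, gave 226 and 201 in skin against 652 and 659 in oral mucosa. Again the groups of spots did not overlap. The means were 214 ± 17.6 (SD of the 2 repeat spots) and 656 ± 5.30, and the VSN difference was 1.34 (SD 0.14). The differences of the 2 microRNAs were 0.07 apart, less than the SD of either, so the clustered pair did not separate on these arrays. Both probes sit at 2 places on the array, in column 4 and in column 19, and the difference by place was 1.14 and 1.39 for miR-221-3p and 1.23 and 1.45 for miR-222-3p. Each was thus past the size rule at either place, and larger in column 19 for both.

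The pair kept its direction and stayed past the size rule. Over 16 normalizations, background corrections and choices of spots, the difference ran from 1.14 to 1.60 for miR-221-3p and from 1.13 to 1.62 for miR-222-3p, and 0 of these values fell below the size rule. In the processed values that the authors deposited, which have a scale between arrays that is not known, miR-221-3p was at 287 and 789 and miR-222-3p at 198 and 537, ratios of 2.75 and 2.71. Among the 394 microRNAs detected on both arrays, of which 11.9% were past the rule toward oral mucosa, miR-222-3p ranked 23 and miR-221-3p 25 by their differences toward oral mucosa. The differences nearest to that of miR-221-3p were those of miR-1195 (1.26), miR-466f (1.25) and miR-691 (1.25), and those nearest to miR-222-3p belonged to miR-7034-5p (1.35), miR-1306-3p (1.36) and miR-3473e (1.37). With 1 array per tissue this likeness rests on a single difference for each microRNA. MiR-1928, the further probe with this seed, read 45.1 in skin and 49.0 in oral mucosa and was detected on neither array.

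**Figure D2:**
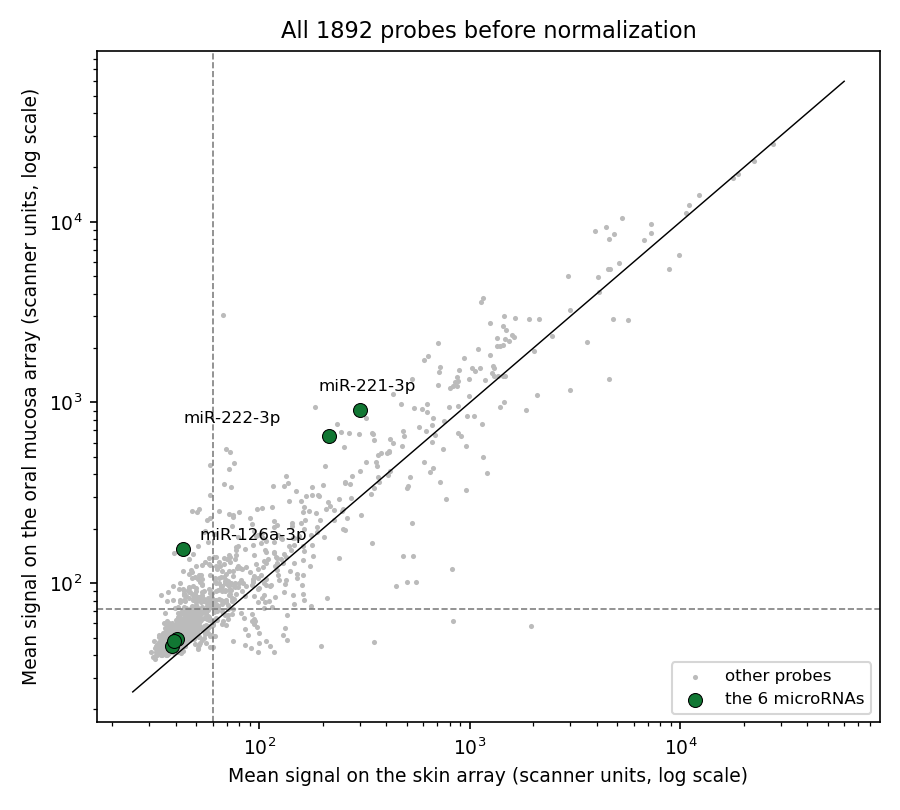
Mean signal of each of the 1892 probes on the skin array against the oral mucosa array, in scanner units on log axes and before normalization, with the detection limits dashed and equal signal as the solid line. MiR-221-3p (301 and 912) and miR-222-3p (214 and 656) lie side by side above the line, and miR-126a-3p (43.4 and 155) lies left of the skin limit.

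The -5p arms of the pair read at background. The spots of miR-221-5p were at 41.1 and 39.8 in skin and at 49.4 and 49.0 in oral mucosa. Those of miR-222-5p were at 39.6 and 38.9 in skin and at 49.0 and 47.3 in oral mucosa. For both probes the oral mucosa spots were above the skin spots, but the ratios of their means, 1.22 for miR-221-5p and 1.23 for miR-222-5p, were close to that of the median probe (1.24), and no fold is given for signals below the limit on both arrays. The processed values of these arms lay between 0 and 2. A higher level in oral mucosa of the hairpins' -5p arms was thus not detectable at this signal, which does not show that it was absent.

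MiR-126a-3p, the endothelial arm that targets Spred1 and Pik3r2, has spots in row 13 of column 17 and in row 120 of column 1, and these are given one by one because spots at the lower end of column 1 were dim. In column 17 it read 57.5 on the skin array, just under the limit of 59.9, against 191 in oral mucosa. In column 1 it read 29.2 on the skin array against 119 in oral mucosa. Both oral mucosa spots were above the limit and above both skin spots, and neither skin spot passed the limit. As its skin signal was not well above background, the difference was taken from the lowest detected skin signal, which gave 1.84 with VSN (SD 0.70 from the 2 oral mucosa spots) and less with most other scalings. The measured means were 43.4 ± 20.1 in skin and 155 ± 51.0 in oral mucosa.

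**Figure D3:**
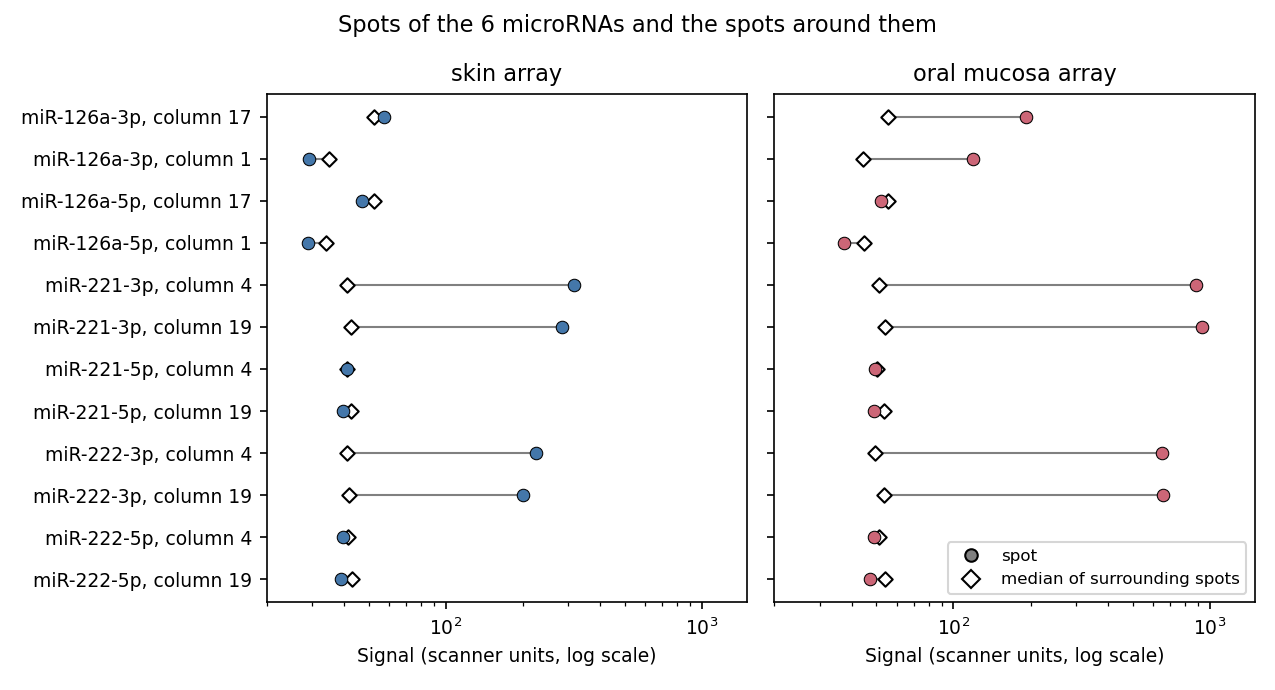
Signal of each spot of the 6 microRNAs (filled circles) and the median of the microRNA spots within 3 rows and 3 columns of it (open diamonds), in scanner units on a log axis, for the skin array (left) and the oral mucosa array (right). The spots of miR-126a-3p lie at their surroundings in skin (57.5 against 52.5 and 29.2 against 35.0) and above them in oral mucosa (191 against 55.4 and 119 against 44.2).

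The place of the spots moved with their signal. Of the 10 microRNA probes that have a spot in the last 16 rows of column 1, 10 were dimmer there than on their other spot on the skin array, with a median ratio of 0.522, and 10 were dimmer there on the oral mucosa array as well, with a median ratio of 0.719. These 10 include miR-126a-3p, miR-126a-5p and miR-126b-3p themselves. The median of the 10 edge spots was 29.4 in skin and 45.1 in oral mucosa, against 36.2 and 51.6 for spots of columns 5 to 27 in the same rows. Column 2 was at 29.9 and 62.9 in these rows. In the first 16 rows columns 5 to 27 were at 51.5 and 58.6, so the ratios can hold the row as well as the column. Compared with the 48 spots around it, the column 17 spot of miR-126a-3p was 5.05 units above their median in skin, where 26 of them were dimmer, and 136 units above it in oral mucosa, where 41 were dimmer. In column 1, where 26 spots surround it, its excess over their median was -5.80 units in skin and 75.1 units in oral mucosa. The excess over the surroundings was therefore large at both places on the oral mucosa array, and on the skin array it was small in column 17 and below 0 in column 1.

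The size of the miR-126a-3p difference varied with the processing. With column 1 left out on both arrays the difference was 2.26, and with only the dimmer spot of each probe it was 1.11. Quantile normalization (0.95) and median scaling (0.91) placed it below the size rule, and it lay between 0.68 and 2.44 over the 16 ways of processing, with 6 of them below the rule. The processed values were 8 in skin and 80 in oral mucosa. Its spots were brighter on the oral mucosa array at both places. As it was detected in oral mucosa only, it could not be called toward skin, so its direction over these settings is no separate result. Whether its difference exceeds 2-fold depended on the scaling.

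MiR-126a-5p, the partner arm, read 47.3 and 29.1 on its skin spots and 52.3 and 37.3 on its oral mucosa spots, in the order column 17 and column 1. The 4 spots all lay under the limits and under the median of their surroundings, and on both arrays the column 1 spot was the dimmer one. The array thus detected 1 arm of miR-126a, and only in oral mucosa. Non-detection at this signal does not show that the partner arm was absent, or that miR-126a was absent from skin. The paper places both arms in its Cluster IV, highly expressed microRNAs of its sequencing that were generally higher in oral mucosa than in skin. By real-time PCR it also measured both arms in epithelial cells captured from wound edges and unwounded tissue, and it reports similar patterns. High expression there means reads above the average at any time point of a wound course, whereas the arrays here hold unwounded tissue only. Levels of the 2 arms were not compared with each other, since probes differ in how well they bind.

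**Figure D4:**
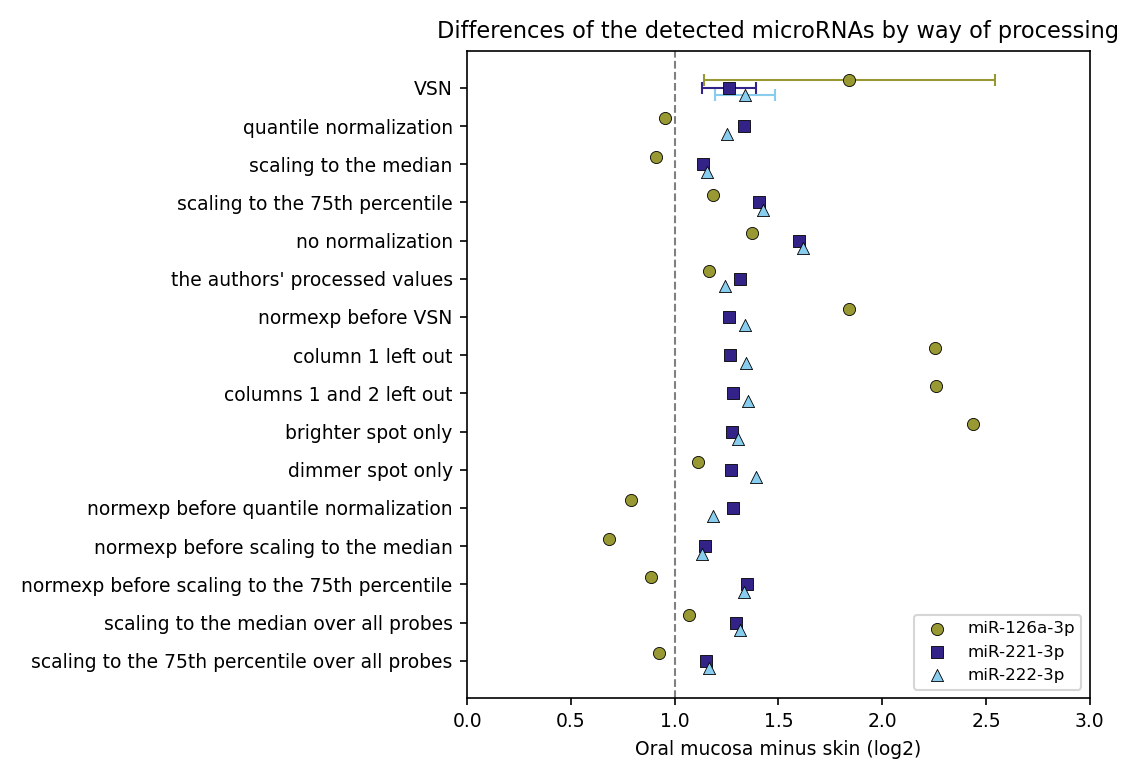
Oral mucosa minus skin difference (log2) of the 3 detected microRNAs under each normalization, background correction and choice of spots, with the size rule of 1 dashed. Bars on the VSN values are the SD of repeat spots. MiR-221-3p and miR-222-3p stay between 1.13 and 1.62, and miR-126a-3p ranges from 0.68 to 2.44.

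On the opposite strand of Mir126a lies Mir126b (chr2:26591363-26591420), and its arms are shown because they are complementary to those of miR-126a.
miR-126b-5p: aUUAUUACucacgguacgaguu
miR-126b-3p: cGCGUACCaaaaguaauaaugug
The target of miR-126b-5p overlaps that of miR-126a-3p by 19 bases, and that of miR-126b-3p covers all 21 bases of miR-126a-5p. MiR-126b-5p had a skin signal of 42.0 ± 3.37 (SD of its 2 spots) against 45.1 ± 5.06 in oral mucosa, and miR-126b-3p had 37.8 ± 11.7 against 44.2 ± 5.99. Neither arm was detected on either array, so signal at this locus was seen only on the strand of Egfl7 and only for the -3p arm.

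Other microRNAs with known roles in vessel growth or the vessel wall formed a list of 30, all with a probe. Of these, 21 were detected on at least 1 array, 4 were past the size rule with the higher signal in oral mucosa, 2 with the higher signal in skin, and 15 were not past it. That 4 of 21 is 19.0%, beside 13.7% over all detected microRNAs. The list's median difference was -0.14, beside 0.00 over all 562, and it lay below the median over all detected microRNAs in 12 of 17 settings and above it in 5, by at most 0.08. The list's median thus stayed near that of all microRNAs, whereas miR-221-3p and miR-222-3p lay above it. MiR-126a-3p also did, but as it was detected in oral mucosa only it could not be called toward skin.

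Those past the rule toward oral mucosa were miR-143-3p and miR-145a-5p, which maintain the contractile state of vascular smooth muscle, and miR-146a-5p and miR-181b-5p, which restrain NF-kB signalling in endothelium. In skin miR-143-3p was under the limit, at 57.0 ± 0.438 (SD of its 2 spots), while the oral mucosa signal was 170 ± 4.03, 2.02 higher with VSN than the lowest detected skin signal and between 0.80 and 2.23 over the 16 ways of processing. MiR-145a-5p gave 80.2 ± 4.80 against 246 ± 19.0, and the VSN difference was 1.78 (SD 0.21). MiR-146a-5p gave 1.05 (SD 0.19) and miR-181b-5p, not detected in skin, gave 1.08 against the lowest detected skin signal, and each was past the rule in 5 of 16 ways of processing. Toward skin the list held miR-10a-5p and miR-10b-5p, Hox cluster microRNAs that act in endothelial inflammation and sprouting, neither of them detected in oral mucosa. Their VSN differences from the lowest detected oral mucosa signal were -4.05 and -6.67. Over the 16 ways of processing they ran from -4.21 to -2.25 and from -6.85 to -4.66, so both stayed past the rule while their size depended on the scaling. The members with the highest signal not past the rule were miR-23a-3p (-0.25), miR-23b-3p (-0.29) and miR-24-3p (-0.21), which act in vessel sprouting and endothelial survival. Each was above 0 in at most 3 of the 16 ways of processing, and each lay below the median over all detected microRNAs in 14 of them. MiR-126b-5p, miR-126b-3p, miR-218-5p, miR-296-5p, miR-155-5p and miR-217-5p were among the 9 detected on neither array.

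**Figure D5:**
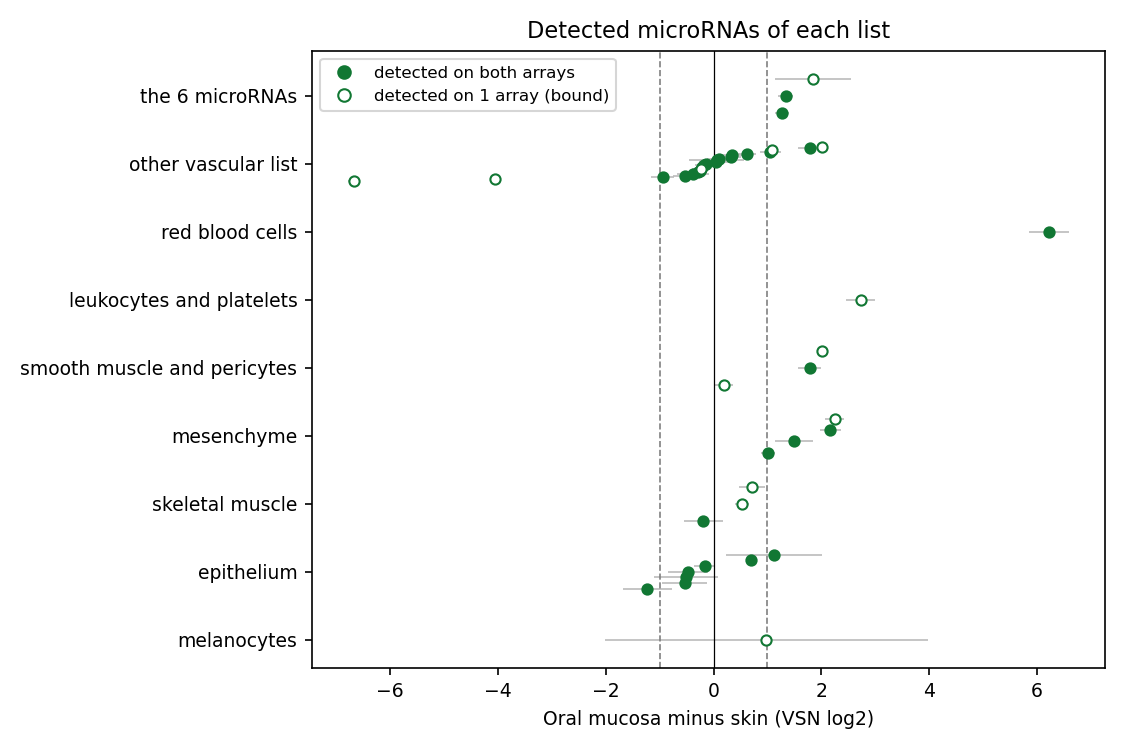
Oral mucosa minus skin difference (VSN log2) of the detected microRNAs of each list, with the SD of repeat spots as bars, open circles for those detected on 1 array only and the size rule of 1 in either direction dashed. The 3 detected vascular -3p arms and the 4 microRNAs listed for mesenchyme all lie above 1, and the other vascular list spreads from -6.67 to 2.02.

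Marker microRNAs of some other cell types were also higher in oral mucosa, and those of others were not. Over all 562 detected microRNAs, 13.7% were past the rule toward oral mucosa and 14.8% toward skin. The lists are short, and probes detected in oral mucosa only, such as miR-214-5p, miR-143-3p and miR-150-5p, could not be called toward skin. Summed signals are given before normalization, where the oral mucosa array was the brighter one (ratio of the median probes 1.24). Of 4 markers of mesenchyme, 4 were past the rule toward oral mucosa, from 1.01 for miR-199a-5p to 2.25 for miR-214-5p, which was not detected in skin, and their summed signal was 434 in skin and 1646 in oral mucosa. MiR-199a-5p was past the rule in 6 of the 16 ways of processing. Of 4 smooth muscle and pericyte markers, 3 were detected and 2 were past the rule toward oral mucosa, with summed signals of 219 and 546 that include probes at background. Those 2, miR-143-3p and miR-145a-5p, are also among the 4 of the vascular list. Among red blood cell markers 3 of 5 had a matched probe and miR-451a was the one detected. It had a skin signal of 67.3, near the limit, against 3056 in oral mucosa. The VSN difference was 6.21 (SD 0.37), and it ran from 4.72 to 6.24 over the 16 ways of processing. MiR-144-3p and miR-144-5p, made from the same transcript as miR-451a, were detected on neither array. The listed miR-486a names had no match by name or sequence. A probe named miR-486-3p read 48.8 in skin and 56.1 in oral mucosa and was detected on neither array. Of 4 leukocyte and platelet markers, miR-150-5p, not detected in skin, was 2.73 higher in oral mucosa with VSN (1.30 to 3.10 over the 16 ways of processing) and miR-223-3p, miR-142-3p and miR-142-5p were detected on neither array. Of 4 skeletal muscle markers 3 were detected and 0 were past the rule. The 7 epithelial markers were detected on both arrays, 1 past the rule in each direction. Toward oral mucosa this is 14.3%, near the 13.7% over all detected microRNAs. Their median VSN difference was -0.48. Their summed signals before normalization were 49225 in skin and 48779 in oral mucosa, mostly from miR-203-3p and miR-205-5p. Of the melanocyte markers miR-204-5p, not detected in skin, gave 0.98 (SD 3.00), not past the rule, and miR-211-5p was not detected. The part of these cell types in the differences of miR-126a-3p, miR-221-3p and miR-222-3p was not tested.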

How the data were processed

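The members and the lists were chosen with earlier results of these data known. The authors deposited, per the file headers, the median intensity of each spot and its SD within the spot, with no background subtraction or scaling. They also deposited 1 processed intensity per probe, in whole numbers, by a method not given in the sources used here. Total RNA was tailed, ligated to a tag and stained with Cy5 on a microfluidic chip. Control spots were left out except for the limit and the normexp fit, and the 2 repeat spots of a probe were averaged. VSN was written in Python from its published description (arsinh transformation, maximum likelihood, 90% of probes kept in each of 5 slices of signal except the dimmest, several starts), fitted on all 1892 probes and tested on simulated data. It gave offsets of 37.9 for skin and 46.3 for oral mucosa and a scale ratio of 1.37. On an array that did not detect a probe, its signal was raised to the lowest detected one where it was below that. Processed values were used on the scale log2(value + 50). The microRNAs named were the 6 members, miR-126b, probes sharing a seed, the members of the vascular list past the size rule with the 3 of highest signal besides, and the 3 nearest differences. Cell type markers, miR-486-3p and miR-199b-5p were named in addition. Alternatives were other normalizations, normexp with an offset of 50, other filters, spots and thresholds. RefSeq tables of GRCm38.p6 held mature entries for 4 of the 6 members, and the other 2 were placed by their sequence in the hairpin. MiR-142 probes were matched to the list by identical sequence. Software was Python 3.11.15, numpy 2.4.6, scipy 1.17.1, pandas 2.3.3, R 4.3.3 and limma 3.58.1.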

Additional observations from a re-analysis of the deposited data

How the results depend on the processing

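No paired analysis was possible because the tissues were each read on a single array. Combinations of normexp with another scaling, and scaling over all probes in place of the detected ones, were chosen after seeing the data. The 2 and 3 members detected on the skin and oral mucosa arrays stayed so with limits of 2 or 5 SD and with both spots required. At 2 SD the skin limit was 52.0, and the column 17 skin spot of miR-126a-3p (57.5) lay above it. Its mean with the dim column 1 spot (43.4) did not, so its non-detection in skin at that limit rests on the column 1 spot. The difference of miR-126a-3p (1.84) was 0.95 with quantile normalization, 0.91 with median scaling and 1.11 with the dimmer spots. Normexp before quantile, median and 75th-percentile scaling gave 0.79, 0.68 and 0.88, and scaling over all probes gave 1.07 (median) and 0.92 (75th percentile). The difference of miR-221-3p (1.26) was 1.41 with 75th-percentile scaling and 1.60 with no normalization. That of miR-222-3p (1.34) was 1.15 with median scaling, 1.62 with no normalization, 1.19 and 1.13 with normexp before quantile and median scaling, and 1.17 with the 75th percentile over all probes. At the 4-fold threshold with VSN 0 members passed. For miR-126a-3p this does not show a difference under 4-fold, since its value is a bound. That bound was 2.26 with column 1 left out and 2.44 with the brighter spots. The count over all microRNAs (160) was 80 with quantile normalization, 87 with median scaling, 85 with 75th-percentile scaling, 102 with no normalization and 87 with the processed values. It was 70, 68 and 71 with normexp before these scalings in the same order, 85 with either scaling over all probes, 577 without a detection filter, 104 with detection on both arrays, and 256 and 46 at 1.5-fold and 4-fold. Calls toward oral mucosa made up 48.1% of all calls with VSN, but 63.5% after 75th-percentile scaling, 60.6% with normexp before it and 78.4% without normalization, which shifted the median over all detected microRNAs to 0.40 (0.20 after 75th-percentile scaling and -0.13 with normexp before median scaling). The median of the vascular list (-0.14) was 0.12 with 75th-percentile scaling, 0.31 with no normalization and 0.10 with normexp before 75th-percentile scaling. None of the 3 detected members changed direction in any setting, though miR-126a-3p, detected in oral mucosa only, could not be called toward skin. Causes were not tested. The signal of miR-126a-3p lay under the limit in skin, so its difference rests on the lowest detected signal there.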
